A study of Mus musculus with 3 samples.

Results

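The C1q and TNF related proteins examined here are the 7 mouse genes *C1qtnf1* to *C1qtnf7*, found by their symbols among the 15554 rows of the table. The family was chosen by measured values, because *C1qtnf3* was the gene with the largest rise in the table after GDF15, so the GDF15 against CTRL difference of *C1qtnf3* is a description and not a finding. The remaining 6 genes entered through their names. Another 23 genes whose products carry a C1q domain were used for comparison.

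The cells were NIH3T3, an established line of mouse embryonic fibroblasts, which had been kept without serum for 24 h. They were then left without stimulation (CTRL) or received a factor in serum-free medium for a further 24 h, which was GDF15 (100 ng/mL) in the GDF15 group and TGF-β (4 ng/mL) in the other. All 3 libraries thus came from serum-starved cells of the same line, and 3 RNA samples per treatment had been pooled into 1 library. The question was which genes a fibroblast switches in response to GDF15, a secreted factor made by gastric cancer cells, with TGF-β as the reference stimulus.

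With 1 pooled library per treatment there was no replicate check of any difference, no p-value could be given, and the spread between cultures is unknown. Values are FPKM (fragments per kilobase of transcript per 1e6 mapped fragments), and a change is the difference of log2(FPKM + 1) between libraries, a scale that understates the change of low genes. A gene was counted as over 2-fold when this change was above 1 in size. Intervals in square brackets cover counting error only. They are 95% Poisson intervals for a level and exact binomial intervals for a ratio, and they rest on numbers of fragments estimated from the FPKM. The estimated depth, in units of 1e6 fragments, was 18.7 (CTRL), 21.8 (GDF15) and 17.8 (TGF-β). In RNA from a whole culture, fewer cells that express a gene and less of its RNA per cell cannot be told apart.

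C1q and TNF related proteins are secreted relatives of the hormone adiponectin. Most consist of a collagen-like stretch followed by a globular C1q domain, the fold that gives complement C1q and the TNF cytokines their common shape, and they assemble as trimers and larger complexes. *C1qtnf3* encodes a protein also called cartducin or cartonectin, known from cartilage and adipose tissue, and *C1qtnf5* is known for its association with a late-onset retinal degeneration in humans. *C1qtnf4* departs from the usual plan because it has C1q domains in tandem and no collagen stretch.

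The promoters of *C1qtnf3* and *C1qtnf6* are shown because both genes lie on chromosome 15 and reached nearly the same level in GDF15 from very different levels in CTRL. Each sequence is the 250 bases before the gene's start in RefSeq (GRCm38.p6), read 5′ to 3′ on the strand of the gene, *C1qtnf3* from chr15:10952082-10952331 on the plus strand and *C1qtnf6* from chr15:78529652-78529901 on the minus strand. The *C1qtnf6* stretch lies inside the span that GENCODE gives for the gene, because the RefSeq start used here is downstream of the GENCODE start. Capitals mark matches to the 5 motifs searched on both strands.
C1qtnf3: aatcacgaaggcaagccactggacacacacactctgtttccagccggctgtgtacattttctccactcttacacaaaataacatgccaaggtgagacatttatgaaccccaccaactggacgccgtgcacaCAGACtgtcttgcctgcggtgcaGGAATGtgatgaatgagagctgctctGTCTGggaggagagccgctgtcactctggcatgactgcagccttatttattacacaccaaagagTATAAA
C1qtnf6: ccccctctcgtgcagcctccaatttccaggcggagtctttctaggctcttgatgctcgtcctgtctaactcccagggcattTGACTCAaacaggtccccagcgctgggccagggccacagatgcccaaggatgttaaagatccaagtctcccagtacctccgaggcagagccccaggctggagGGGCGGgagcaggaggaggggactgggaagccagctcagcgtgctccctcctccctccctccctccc
In *C1qtnf3* the capitals mark the Smad box CAGAC starting at base -119 from the gene's start and again, read on the other strand as GTCTG, at -70, the TEAD motif GGAATG at -96 and the TATA box TATAAA at -6. In *C1qtnf6* they mark the AP-1 motif TGANTCA, read as TGACTCA, at -169 and the GC box GGGCGG at -67. The motifs overlapped no other match. Of 32817 promoters of the same length, 42.2% held CAGAC, 12.6% GGAATG, 12.4% TATAAA, 6.75% TGANTCA and 32.7% GGGCGG. The promoter of *C1qtnf3* had a GC content of 49.2% and 6 CpG, that of *C1qtnf6* 62.8% and 7 CpG, beside medians of 52.4% and 6 CpG over all promoters. Such matches describe the letters and are not binding sites. Promoters were given for 5 of the 7 genes. Among those not printed, the promoter of *C1qtnf2* held a Smad box and a GC box. The promoter of *C1qtnf5* held a Smad box and a TEAD motif, and that of *C1qtnf7* a TEAD motif. The one listed for *C1qtnf5* begins at base 44101520 of chromosome 9, upstream of *Mfrp*, a gene discussed with *C1qtnf5*.

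Of the 7 genes, 4 were detected. *C1qtnf3* was nearly silent in unstimulated cells and was a moderately expressed gene in both stimulated libraries, whereas *C1qtnf6*, *C1qtnf1* and *C1qtnf5* stayed within 2-fold of CTRL on the log2(FPKM + 1) scale. *C1qtnf2*, *C1qtnf4* and *C1qtnf7* were listed at 0 throughout.

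*C1qtnf3* (ENSMUSG00000058914.12, chromosome 15, 10952332 to 10980150, plus strand, GRCm38) has 6 exons in its longest coding transcript of 2338 bases. It stood at an FPKM of 0.124 in CTRL [0.0402 to 0.291], at 11.3 in GDF15 [10.3 to 12.3] and at 24.6 in TGF-β [23.0 to 26.2]. The 3 intervals did not overlap, with CTRL lowest and TGF-β highest. These levels rest on an estimated 4.96, 525 and 936 fragments in the same order, so the CTRL level is the least precise of the 3. With the shorter coding transcript of 2088 bases the estimates were 4.38, 463 and 826 fragments.

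The change of *C1qtnf3* from CTRL was 3.45 in GDF15 and 4.51 in TGF-β on the log2(FPKM + 1) scale. As a ratio of FPKM it was 90.7 [38.5 to 282] in GDF15 and 198 [84.1 to 613] in TGF-β. Both comparisons use the same CTRL library, and the width of both intervals follows from the few fragments there. The direct comparison, which does not use CTRL, gave a change of 1.06 and an FPKM ratio of 2.18 [1.96 to 2.43] for TGF-β over GDF15. The lower bound of that ratio was under 2.

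*C1qtnf3* ranked first of 15554 rows by its rise in GDF15, the value it was chosen by. The runner-up was *Ctgf*, a matricellular growth factor, at 2.08. *C1qtnf3* also ranked first in TGF-β, where *Ctgf* again followed at 2.96. That comparison reuses the low CTRL level behind the choice, so its rank is not independent of it. In the direct comparison of TGF-β with GDF15 it ranked 10. Set against the 500 rows nearest in mean expression, its change stood 16.4 local spreads from their median in GDF15, 20.7 in TGF-β and 7.77 in the direct comparison, where a local spread is the median absolute deviation scaled to an SD. That spread is between genes and not between cultures. The distance in GDF15 was fixed by the choice, and those in TGF-β and in the direct comparison reuse the CTRL and GDF15 levels behind it. In the order of expression, *C1qtnf3* had 10357 rows above it in CTRL, 5032 rows in GDF15 and 2445 rows in TGF-β.

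The rise of *C1qtnf3* began near silence, which is described here with limits of FPKM set after its values were seen, so its own place is fixed by the choice. Of 5455 rows with an FPKM under 0.2 in CTRL, 1 row, *C1qtnf3*, stood at 10 or more in GDF15, and the same 1 row did so in TGF-β. At an FPKM of 1 or more stood 4 of these rows in GDF15 and 8 in TGF-β. The next highest was *Mfap4*, a microfibril-associated protein singled out after its values were seen, which went from 0.0816 FPKM in CTRL to 3.43 in the GDF15 library and 4.53 in the TGF-β library.

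**Figure D1:**
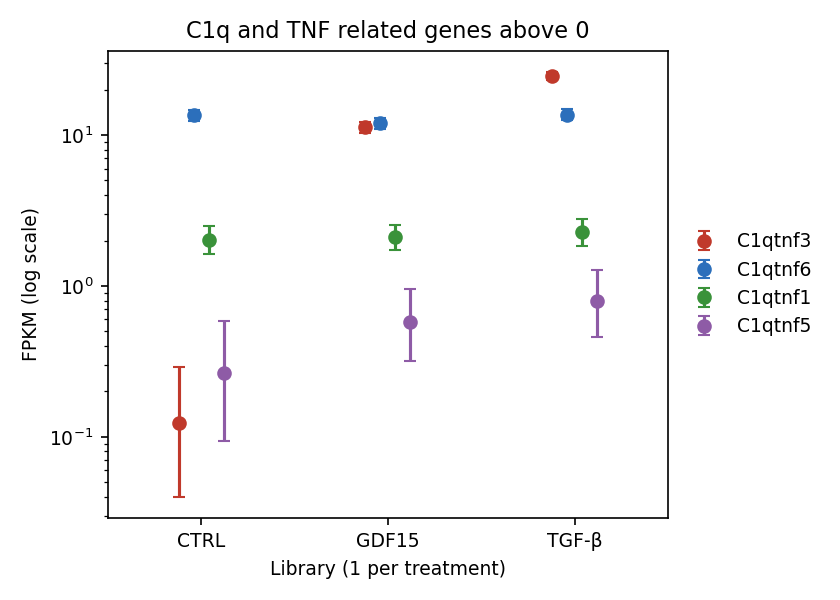
FPKM of the detected C1q and TNF related genes in the CTRL, GDF15 and TGF-β libraries (log axis), with bars for the 95% counting interval of each level. *C1qtnf3* goes from 0.124 to 11.3 and 24.6, while *C1qtnf6* stays between 12.005 and 13.6.

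*C1qtnf6* (ENSMUSG00000022440.9, chromosome 15, 78523346 to 78531416, minus strand), whose product is a secreted collagen-like member, was the highest member in unstimulated cells. CTRL held 13.6 FPKM [12.5 to 14.8], GDF15 12.005 [11.04 to 13.03] and TGF-β 13.6 [12.5 to 14.8], from an estimated 558, 575 and 535 fragments. The intervals of the levels overlapped. The change was -0.16 in GDF15 and 0.01 in TGF-β, with FPKM ratios to CTRL of 0.884 [0.786 to 0.995] and 1.004 [0.890 to 1.13]. The counting interval of the GDF15 change ran from -0.32 to -0.01 on the log2(FPKM + 1) scale, short of 2-fold. The change was -0.11 with upper quartile scaling, -0.12 with the running median removed and -0.07 with the trend in length and GC removed. These shifts are larger than the distance of the interval from 0, so a difference from CTRL cannot be told from the scaling. The TGF-β ratio included no difference.

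*C1qtnf1* (ENSMUSG00000017446.14, chromosome 11, 118428203 to 118449963, plus strand), an adiponectin relative known from vascular tissue, was low and steady. CTRL held 2.03 FPKM [1.63 to 2.50], GDF15 2.11 [1.73 to 2.55] and TGF-β 2.29 [1.85 to 2.79]. The intervals overlapped, and the estimated fragments were 88.2, 107 and 95.0. The change was 0.04 in GDF15 and 0.12 in TGF-β. The FPKM ratios were 1.04 [0.778 to 1.40] and 1.13 [0.835 to 1.52]. Both intervals include no difference and exclude 2-fold in either direction.

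*C1qtnf5* (ENSMUSG00000079592.9, chromosome 9, 44107245 to 44109187, plus strand) was below an FPKM of 1 in every library. The CTRL library gave 0.263 [0.0938 to 0.583], the GDF15 library 0.576 [0.320 to 0.956] and the TGF-β library 0.795 [0.459 to 1.28]. The levels lay higher in the stimulated libraries, but the 3 intervals overlapped and rest on an estimated 5.73, 14.6 and 16.5 fragments. The change was 0.32 in GDF15 and 0.51 in TGF-β, neither over 2-fold. The FPKM ratio was 2.19 [0.786 to 7.09] in GDF15, an interval that includes no difference, and 3.02 [1.11 to 9.64] in TGF-β, an interval that lies above no difference, so that the level was higher by more than the counting error.

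The gene model of *C1qtnf5* limits what its FPKM can mean. All 1589 bases of its exons also lie in exons of *Mfrp*, a membrane frizzled-related protein gene on the same strand. Reads of these transcripts cannot be told apart there, and *Mfrp* has no row under that symbol in the deposited data. *Rnf26*, a ubiquitin ligase gene on the opposite strand, spans the locus but shares 0 exon bases with *C1qtnf5*. Its FPKM fell in a narrow range, 23.1 without stimulation, 20.8 after GDF15 and 20.0 after TGF-β. It was lowest in the library where *C1qtnf5* was highest, and its part in the *C1qtnf5* level was not tested.

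*C1qtnf2* (chromosome 11, 43474276 to 43491525), *C1qtnf4* (chromosome 2, 90885860 to 90890525) and *C1qtnf7* (chromosome 5, 43515538 to 43618803) were listed at 0 in all 3 libraries. At the estimated depth, 0 fragments allow *C1qtnf2* an FPKM of up to 0.159, 0.136 and 0.167 in CTRL, GDF15 and TGF-β. For *C1qtnf4* the limits were 0.147, 0.126 and 0.154, and for *C1qtnf7*, which has the longest transcript of the 3, they were 0.0437, 0.0375 and 0.0458. A level like that of *C1qtnf3* in CTRL would therefore have been below the limit for *C1qtnf2* and *C1qtnf4*. As a check of zeros in the table, 0 of 73 ribosomal protein genes were listed at 0 in any library, but 2 of them, *Rpl26* and *Rpl29*, were below an FPKM of 1 in at least 1 library.

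Counted together, 1 of the 7 genes, *C1qtnf3*, was over 2-fold in GDF15 against CTRL, where 45 of all rows were (0.289%). That count was fixed by the choice of the family. In TGF-β against CTRL it was again 1 of 7, beside 142 of all rows (0.913%), and in TGF-β against GDF15 1 of 7, beside 16 of all rows (0.103%). All 3 counts are the same gene, and the later ones reuse the CTRL or GDF15 level behind the choice. The median change over the 7 genes was 0 in GDF15, 0.01 in TGF-β and 0.08 in the direct comparison, and the median over all rows was 0 in each.

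The order of the 7 genes differed between the libraries, with *Fam132a*, a further family member described below, left out. In CTRL it was *C1qtnf6*, *C1qtnf1*, *C1qtnf5* and *C1qtnf3* by FPKM, with overlapping intervals for the last pair. In GDF15 *C1qtnf6* and *C1qtnf3* led with overlapping intervals, followed by *C1qtnf1* and *C1qtnf5*. In TGF-β *C1qtnf3* stood above *C1qtnf6*, and no neighbours in the order overlapped. Summed over these genes, FPKM came to 15.99 (CTRL), 25.97 (GDF15) and 41.28 (TGF-β). *C1qtnf3* made up 0.778%, 43.4% and 59.5% of these sums, while the share of *C1qtnf6* was 84.9%, 46.2% and 33.0%.

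**Figure D2:**
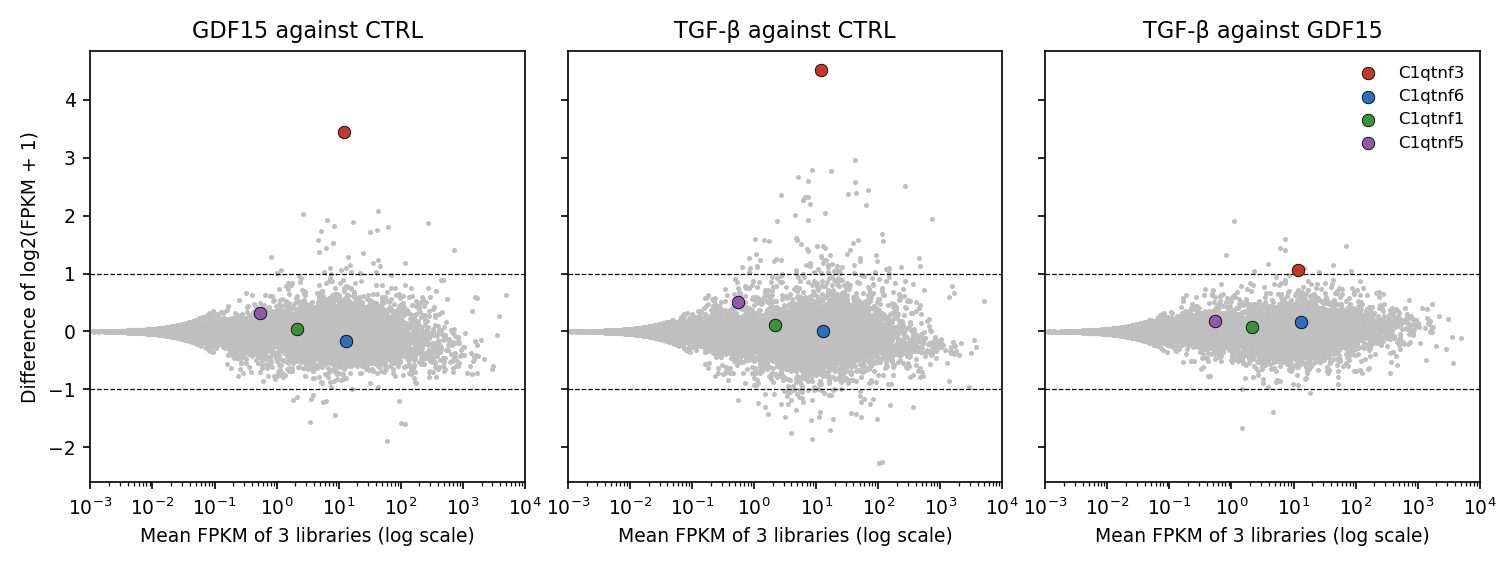
Change in log2(FPKM + 1) against mean FPKM of the 3 libraries (log axis) for detected rows. The detected C1q and TNF related genes are marked. The panels show GDF15 against CTRL, TGF-β against CTRL and TGF-β against GDF15. *C1qtnf3* stands highest in the comparisons with CTRL, at 3.45 and 4.51, and is at 1.06 in the last panel. The other marked genes lie between -0.16 and 0.51.

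Beyond the 7 genes, the C1q domain is found in further family members, complement C1q, short-chain collagens, emilins, cerebellins and C1q-like synaptic proteins. Of the 23 further genes of this list, 10 were listed at 0 in all libraries and 17 were below an FPKM of 1 in every library. *Col8a1* was over 2-fold in GDF15 and in TGF-β against CTRL, 1 of 23 in each, beside 0.289% and 0.913% of all rows. Between the stimulated libraries 0 of 23 were over 2-fold, beside 0.103% of all rows. The median change of the 23 genes was 0 in every comparison.

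*Col8a1* (chromosome 16, 57624258 to 57754737, minus strand) encodes a chain of collagen VIII, a short-chain collagen of the subendothelial and stromal matrix. It stood at 9.60 FPKM without stimulation, 33.8 after GDF15 and 54.0 after TGF-β, from an estimated 879, 3606 and 4721 fragments. CTRL was lowest and TGF-β highest, the same order of libraries as for *C1qtnf3*, from a much higher starting level. The change was 1.71 in GDF15 and 2.38 in TGF-β, with FPKM ratios of 3.52 [3.27 to 3.79] and 5.63 [5.23 to 6.05]. *Col10a1*, the related collagen X of hypertrophic cartilage, singled out after its values were seen, stood at 0.128, 0.423 and 1.03 FPKM. Its changes were 0.34 and 0.85, with FPKM ratios to CTRL of 3.31 [1.40 to 9.01] and 8.09 [3.67 to 21.1]. For TGF-β over GDF15 its FPKM ratio was 2.45 [1.51 to 4.04] and its change 0.52. *C1ql4*, which encodes a C1q-like secreted protein and was likewise singled out, stood at 0.520 and 0.535 FPKM in CTRL and GDF15 and was listed at 0 in TGF-β, with changes of 0.01 and -0.60.

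The other C1q domain genes whose mean FPKM reached 1 stayed within 2-fold. *Emilin1*, an elastic fibre glycoprotein, was at 15.9, 22.7 and 23.1 FPKM in the order CTRL, GDF15 and TGF-β, with changes of 0.49 and 0.52 and FPKM ratios to CTRL of 1.43 [1.33 to 1.54] and 1.46 [1.35 to 1.58], both above CTRL by more than the counting error. *Emilin2* was at 20.7, 22.1 and 20.6, with changes of 0.09 and -0.01. *Fam132a*, which encodes the family member also named C1qtnf12, was at 3.11, 2.13 and 1.70. Its changes were -0.39 and -0.60, and its FPKM ratios to CTRL were 0.686 [0.467 to 1.005] and 0.549 [0.351 to 0.844], so that in TGF-β the level lay below CTRL by more than the counting error. *Caprin2*, an RNA-binding protein with a C1q domain, was at 4.48, 3.47 and 3.55, with changes of -0.29 and -0.27. Its FPKM ratios to CTRL were 0.776 [0.654 to 0.919] and 0.792 [0.662 to 0.947], both below CTRL by more than the counting error. In TGF-β the counting interval of its change ended at -0.06 on the log2(FPKM + 1) scale. The running median of changes there was -0.08, so this difference in TGF-β cannot be told from the scaling. *Adipoq*, the adiponectin gene, was at 0, 0.0891 and 0.

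**Figure D3:**
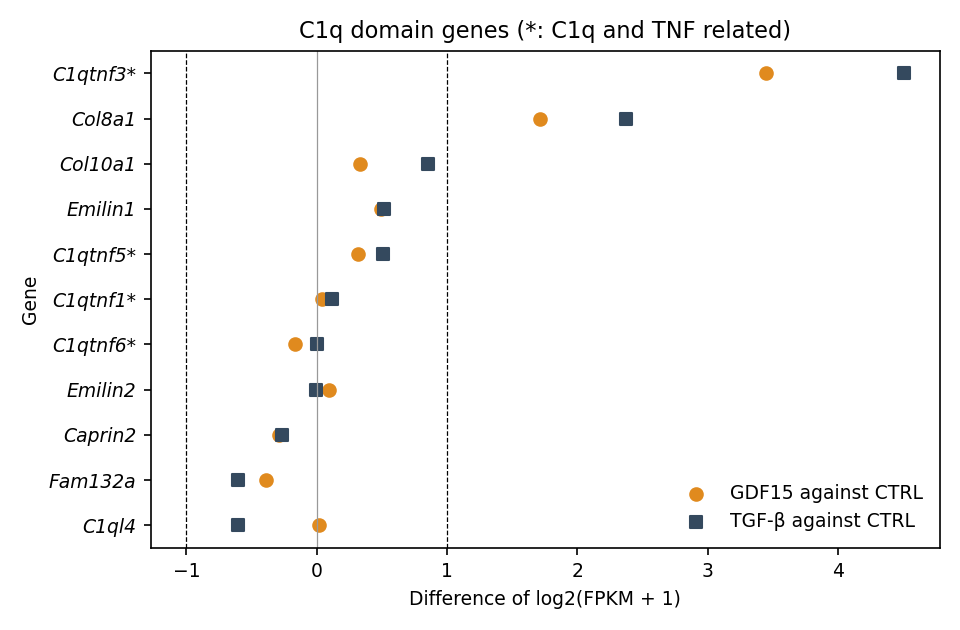
Change in log2(FPKM + 1) from CTRL of the detected C1q and TNF related genes and of other detected C1q domain genes, in GDF15 and in TGF-β. *C1qtnf3* (3.45 and 4.51) and *Col8a1* (1.71 and 2.38) lie beyond the 2-fold lines at 1, and the remaining genes lie inside them.

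Several proteins have been reported to bind members of the family. The adiponectin receptor genes were expressed, *Adipor1* at 96.6, 87.9 and 91.9 FPKM in the same order and *Adipor2* at 23.3, 23.6 and 21.9. *Lrp1*, a large endocytic receptor, was at 158, 219 and 213, with changes of 0.47 and 0.43. *Cdh13*, the T-cadherin that binds adiponectin, was at 0, 0.0220 and 0, and both *Rxfp1* and *Bai3* were listed at 0. None of these 6 genes was over 2-fold in any comparison. *Mfrp*, also on the list of partners, had no row.

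The genes whose pattern over the 3 libraries was most like that of *C1qtnf3* were sought among the 9225 other rows whose mean FPKM reached 1, by Euclidean distance between log2(FPKM + 1) values centred on their mean. With 3 libraries that all share the same cells, this likeness is a description. The nearest was *Ctgf* at a distance of 1.20, with 9.03 FPKM in CTRL and 41.3 and 77.3 after GDF15 and TGF-β. *Col11a1*, a fibrillar collagen chain, followed at 1.36 with 3.72, 16.5 and 31.0 FPKM. *Wisp1*, a matricellular relative of *Ctgf*, was at 1.37 with 1.50, 7.79 and 16.2 FPKM. *Postn*, the matrix protein periostin, and *Lox*, the collagen cross-linking lysyl oxidase, came next at 1.45 and 1.48. *Postn* was at 0.730, 4.73 and 10.02 FPKM and *Lox* at 78.0, 289 and 452. All 5 were lowest in CTRL and highest in TGF-β, which follows from the search for a like pattern. Their smaller change in both comparisons with CTRL follows from the first rank of *C1qtnf3*.

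**Figure D4:**
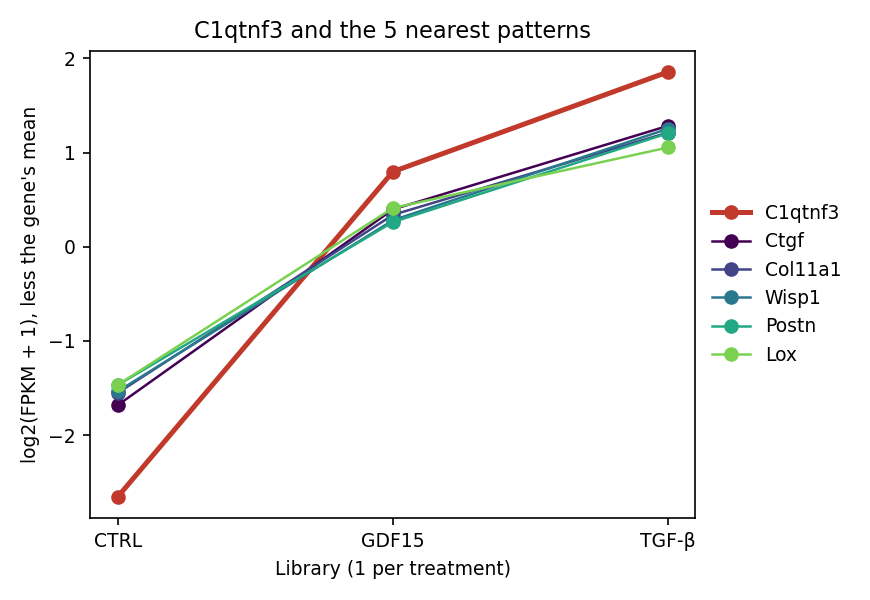
log2(FPKM + 1) in each library, centred on the mean of the 3 libraries, for *C1qtnf3* and the 5 genes nearest to it by Euclidean distance. The lines run upward from CTRL to TGF-β, with *C1qtnf3* the steepest and *Ctgf* nearest to it, at a distance of 1.20.

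Of the genes within 1 Mb of its start, a window chosen after the values were seen, 12 were measured, 6 reached a mean FPKM of 1, and 0 were over 2-fold in any comparison. *Amacr*, a peroxisomal racemase gene that begins 1605 bases beyond the end of *C1qtnf3* on the same strand, was at 7.02 FPKM in CTRL, 8.75 after GDF15 and 9.73 after TGF-β, with changes of 0.28 and 0.42. *Rai14*, an actin-associated protein gene on the other side at a gap of 237707 bases, was at 42.3, 48.8 and 49.1, with changes of 0.20 and 0.21. FPKM ratios to CTRL in GDF15 and TGF-β were 1.246 [1.08 to 1.44] and 1.38 [1.19 to 1.61] for *Amacr* and 1.15 [1.11 to 1.20] and 1.16 [1.11 to 1.21] for *Rai14*, all above CTRL by more than the counting error. So were those of *Adamts12*, a metalloprotease gene, at 1.35 [1.26 to 1.45] and 1.42 [1.32 to 1.53], and of *Tars*, a tRNA synthetase gene, at 1.22 [1.16 to 1.28] and 1.45 [1.37 to 1.52], both named after their values were seen. *Rad1*, a checkpoint gene named likewise, lay below CTRL in TGF-β at 0.768 [0.688 to 0.856]. *Npr3*, named likewise and below an FPKM of 1 in every library, lay above CTRL in TGF-β at 1.52 [1.09 to 2.14]. Its ratio in GDF15 was 1.36 [0.975 to 1.90], an interval that includes no difference. *Ttc23l* was listed at 0 in all 3 libraries, and *Slc45a2*, a melanosomal transporter gene, was at 0, 0 and 0.0403.

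**Figure D5:**
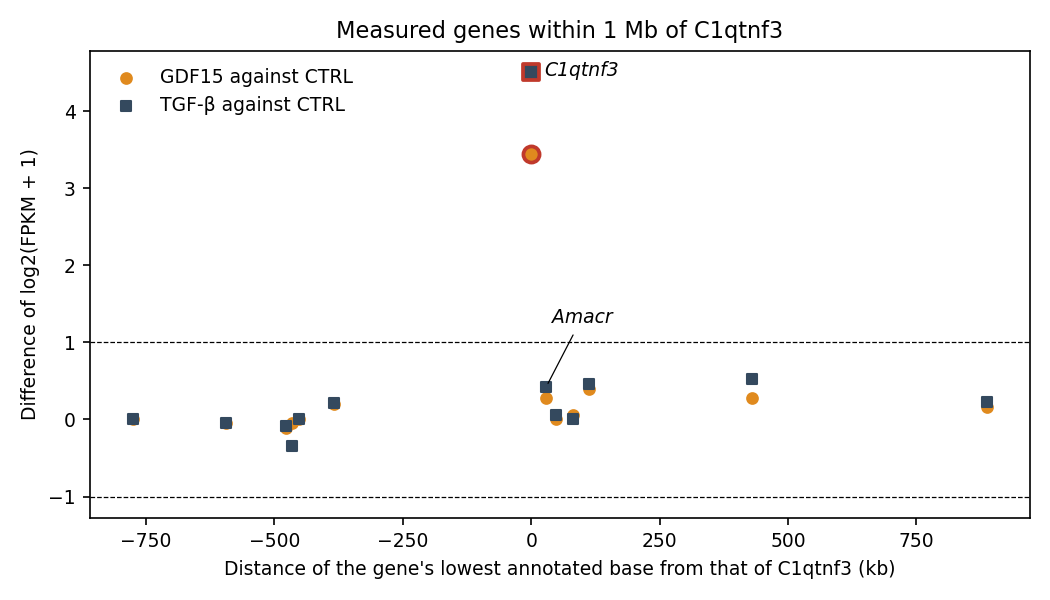
Change in log2(FPKM + 1) from CTRL of *C1qtnf3* and the 12 measured genes within 1 Mb, by distance of the lowest annotated base from that of *C1qtnf3* (kb), for GDF15 and TGF-β. *C1qtnf3* stands at 3.45 and 4.51, and 0 of the 12 neighbours are beyond the 2-fold lines.

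Because *C1qtnf3* is known from cartilage and fat, the markers of these tissues were read beside it. Of 10 fibroblast markers, 9 reached a mean FPKM of 1, and the list summed to 16018, 18500 and 17090 FPKM in the order CTRL, GDF15 and TGF-β. Single markers lay on either side of CTRL and within 2-fold of it. The collagen gene *Col1a1* had changes of 0.60 in GDF15 and 0.79 in TGF-β and the fibronectin gene *Fn1* 0.64 and 0.53, whereas *S100a4* had -0.59 and -0.38, *Vim* -0.15 and -0.40 and the growth factor receptor gene *Pdgfra* 0.00 and -0.79. *Lum* was at 0, 0 and 0.0299. Of 10 adipocyte markers, 9 were below 1 in every library, and *Plin1*, *Cidec*, *Lep*, *Pparg*, *Cebpa* and *Retn* were listed at 0. *Lpl* alone was expressed, and the summed FPKM of the list was 43.8, 58.9 and 44.7.

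Of 11 chondrocyte markers, 8 were below 1 in every library, and the summed FPKM was 70.0, 61.9 and 63.9. *Sox9*, a transcription factor of cartilage that other cells also express, was at 68.0, 59.4 and 60.7. The cartilage collagen gene *Col2a1* was at 0.0565, 0.107 and 0.0830, *Acan*, the cartilage proteoglycan aggrecan, at 0.00747, 0.0128 and 0, and *Col9a1* at 0. *Comp*, a cartilage and tendon matrix protein, was at 0.360, 0.989 and 1.39, the order of libraries seen for *C1qtnf3*. *Col11a2*, a minor cartilage collagen gene, was at 1.41, 1.297 and 1.56. The part of these markers in the result was not tested.

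Of 10 macrophage markers, 7 were below 1 in every library, *C1qa*, *C1qb*, *C1qc* and *Emr1* were listed at 0, and the summed FPKM was 12.8, 12.5 and 11.0. The expressed ones were *Lyz2* at 5.29, 6.20 and 4.13, *Cd14* at 5.66, 4.99 and 5.11 and *Cd68* at 1.66, 1.14 and 1.67. Of 6 epithelial markers, 5 were below 1 in every library, and *Epcam* was at 0. *Cdh1*, the gene of epithelial cadherin, was lowest in TGF-β, at 0.685, 0.555 and 0.186. *Krt14*, a basal keratin, was at 24.0, 48.2 and 136 FPKM, in the same order of libraries as *C1qtnf3*. Its part in the result was not tested.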

How the data were processed

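RNA of NIH3T3 cells from 3 treatments was sequenced as 1 stranded, single-end library per treatment, made from pooled RNA. The authors deposited 1 table of FPKM restricted to reviewed protein coding genes, with 15554 rows and 3 value columns. The submitters' processing notes name TopHat 1.3.2, Bowtie 0.12.9, Cufflinks 2.0.2 and mm10. The gene annotation is not given in the sources used here. Columns were mapped to treatments by the treatment in their name, since its first part counts upward from NIH3T3.

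log2(FPKM + 1) was computed from the deposited FPKM, a change is the difference between libraries, and over 2-fold means a change above 1 in size. The study used a 2-fold criterion too, and its methods name no pseudocount. The pseudocount of 1 was chosen here. With it, 45 rows were over 2-fold in GDF15 against CTRL, 33 higher and 12 lower, the same numbers as the study reports. Pseudocounts of 0.5, 0.1 and none gave 71, 315 and 589 rows. No test was possible. Coordinates, transcript lengths and GC content came from GENCODE M21 (GRCm38), which matched 15463 rows, and promoters from RefSeq. Depth was estimated from 2217 rows with a single transcript, whose low FPKM, multiplied by the length less 200 bases, fall in steps of 1 fragment. Between 67.1% and 72.6% of values up to 5 fragments came within 0.1 of a whole number. A count of 3 fragments was taken as the limit for a level of 0. The local spread is 1.4826 times the median absolute deviation.

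The genes and lists were chosen with earlier results of these data known. Named were the 7 members, other C1q domain genes over 2-fold or reaching a mean FPKM of 1, reported binding partners, the 5 genes nearest in pattern, genes overlapping a member or flanking *C1qtnf3*, and marker genes. Genes named outside this rule are marked as such in the text, apart from *Rpl26* and *Rpl29* in the check of zeros. Changes, depth estimates and the Poisson interval were tested on simulated data with known values. The binomial interval was not simulated, and the local spread was computed there without a known value to compare. The other settings were pseudocounts of 0.5 and 0.1, no pseudocount, a minimum mean FPKM of 1, upper quartile scaling, removal of the running median, and subtraction of a trend in length and GC. The qRT-PCR and proliferation data and protein sequences were not used here. Calculations used scipy 1.17.1, pandas 2.3.3 and numpy 2.4.6 under Python 3.11.15, and figures were drawn with matplotlib 3.10.9.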

Additional observations from a re-analysis of the deposited data

How the results depend on the processing

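The change of *C1qtnf3* in GDF15 against CTRL was 4.24 with a pseudocount of 0.5, 5.66 with 0.1 and 6.50 with none, and in TGF-β against CTRL it was 5.33, 6.78 and 7.63. A smaller pseudocount gives more weight to the CTRL level, which rests on an estimated 4.96 fragments. Upper quartile scaling and removal of the running median or of the trend in length and GC gave 3.41 to 3.47 and 4.46 to 4.60. The minimum mean FPKM cannot alter the change of a single gene. In TGF-β against GDF15 the change was 1.05 to 1.12 over all settings. Members over 2-fold numbered 2 without pseudocount in GDF15, and 2 with a pseudocount of 0.1 and 2 without in TGF-β, each time *C1qtnf3* and *C1qtnf5*. The share of all rows over 2-fold was then 5.32% without pseudocount in GDF15, and 3.14% and 7.12% in TGF-β. With a pseudocount of 0.1 and with none, the change of *C1qtnf5* lay between 0.90 and 1.13 in GDF15 and reached 1.59 in TGF-β. Of the other C1q domain genes, 2 were over 2-fold in GDF15 at 0.1 and without pseudocount (*Col8a1* and *Col10a1*, both higher), where 2.03% and 5.32% of all rows were. In TGF-β 3 were over 2-fold at 0.5 and at 0.1 (with *C1ql4*, lower and listed at 0 there) and 3 without pseudocount (with *Cbln3*, lower), beside 1.26%, 3.14% and 7.12% of all rows. No value reversed. No paired analysis was possible because 1 library was sequenced per treatment, which also means that none could be left out.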
